A study of Mus musculus with 9 samples.

Results

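Tcf7, Lef1, Bach2, Satb1, Foxo1, Klf2, S1pr1, Ly6c1 and Evl are 9 genes that resting T cells transcribe, and they are described here in regulatory T cells (Tregs) of mice. They were taken by symbol from a table of 24016 gene symbols, each represented by its transcript with the highest mean. All 9 were present, and all passed the minimum mean of 10 normalized reads that left 12206 genes for testing. The 5 libraries came from Tregs sorted from skin-draining lymph nodes: 2 of control cells (Ctl) and 3 from Mi2 mice, of which 2 were labelled TSLPR WT and 1 TSLPR-negative. Crlf2 encodes TSLPR, which binds TSLP, a cytokine that keratinocytes release. Mi2 stands for Mi-2β, the chromatin remodelling ATPase encoded by Chd4, and the column names of the table mark the Mi2 libraries as knock-outs. The labels used here give no age, strain or Cre driver, do not say which cells lost Mi-2β, and do not say how TSLPR-negative cells were obtained. They also do not say whether replicates came from different mice, so each p-value measures the spread between these libraries, which may be technical. The column names call the cells skin Tregs, where the labels give lymph nodes. Those names also prefix both Ctl libraries with WT (wild type), without saying for which gene.

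A resting T cell is kept small, long-lived and circulating by an active programme. TCF-1 (Tcf7) and LEF-1 (Lef1) are related HMG-box factors of naive and memory cells, BACH2 represses effector genes, and SATB1 organizes chromatin. FOXO1 enters the nucleus when PI3K and AKT signalling is low, and drives Klf2, whose product in turn activates S1pr1, the receptor with which lymphocytes leave lymph nodes. In Tregs the same factors mark the central, or resting, subset, while effector Tregs express Prdm1, Icos and Klrg1. Ly6c1 encodes a GPI-anchored surface protein of resting T cells, and Evl an Ena/VASP protein that helps actin filaments grow.

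Promoters are shown as a description, and a shared control of the 9 genes through them was not tested. RefSeq promoter entries on GRCm38.p6 were found for 8 of the 9 genes, in 18 entries, and not for S1pr1. The 3 genes with 1 entry each were printed for the 250 bases before the start: Foxo1 (chr3:52268087-52268336, + strand), Bach2 (chr4:32417185-32417434, + strand) and Klf2 (chr8:72318812-72319061, + strand). Capitals mark matches, on either strand, to the TCF/LEF motif CTTTGA, the FOXO motif GTAAACA, the AP-1/BACH motif TGAGTCA or the SP/KLF motif GGGNGGGG; no motif contains another.
Foxo1: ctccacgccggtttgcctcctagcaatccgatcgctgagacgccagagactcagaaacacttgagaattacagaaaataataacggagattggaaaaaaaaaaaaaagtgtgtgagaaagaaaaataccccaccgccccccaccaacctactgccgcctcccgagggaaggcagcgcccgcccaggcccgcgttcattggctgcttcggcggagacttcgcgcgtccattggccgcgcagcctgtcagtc
Bach2: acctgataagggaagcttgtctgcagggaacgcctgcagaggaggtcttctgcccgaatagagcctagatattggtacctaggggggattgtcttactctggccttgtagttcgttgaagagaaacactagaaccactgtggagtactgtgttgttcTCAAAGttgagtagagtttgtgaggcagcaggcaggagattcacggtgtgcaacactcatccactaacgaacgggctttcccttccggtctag
Klf2: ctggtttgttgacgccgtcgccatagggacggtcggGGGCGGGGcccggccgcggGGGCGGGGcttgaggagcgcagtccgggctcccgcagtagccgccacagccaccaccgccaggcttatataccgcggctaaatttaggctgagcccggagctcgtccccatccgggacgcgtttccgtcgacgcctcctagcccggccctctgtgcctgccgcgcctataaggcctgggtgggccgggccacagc
Bach2 held 1 TCF/LEF match, in reverse complement, 93 bases before the start, and Klf2 held 2 SP/KLF matches. Foxo1 had 2 SP/KLF matches in the 50 bases after its start, which are not printed, and none in the bases shown. Over the whole 300-base entries, TCF/LEF letters occurred in 2 of the 18 entries of these genes and in 16% of all 32851 promoters. FOXO letters occurred in 1 of 18 entries, a Tcf7 entry, against 3.65% of promoters. SP/KLF letters were in 14 of 18 entries against 33.2% of promoters, and AP-1/BACH letters in 0 of 18 against 5.2%. Several entries belong to 1 gene and overlap, so these shares are descriptions.

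The Treg libraries held between 21849381 and 32238992 reads over all transcripts. Treg markers were present in every library: Foxp3, the lineage factor, read between 11159 and 15371 normalized reads, and Il2ra between 24159 and 40339.5. Crlf2 checked the receptor label. It read 395 and 742 in the Ctl pair, 816 and 715 in the TSLPR WT Mi2 pair and 51.5 in the TSLPR-negative library, a log2 difference of -3.86 between the Mi2 groups (SE 0.367, adjusted p 1.40e-04 by limma with Benjamini-Hochberg adjustment, as for all adjusted p-values here). Chd4 read between 11757 and 15392 in the 5 Treg libraries and was not called in any comparison, so it is no check of the Mi2 label in these cells. In bulk RNA, fewer cells of a kind and less RNA per cell cannot be told apart.

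Tregs of Mi2 mice with an intact receptor had less RNA of most of these genes than Ctl Tregs. The table gives normalized reads, and changes are on the log2(value + 1) scale. A gene was called at an adjusted p under 0.05. In TSLPR WT Mi2 against Ctl Tregs, 7 of the 9 genes fell and 0 rose, while 27.7% of all tested genes were called, 13.0% lower and 14.7% higher. Their median log2 change was -1.26, and that of all 12206 genes was -0.01. Both TSLPR WT Mi2 libraries lay below both Ctl libraries for the same 7 genes, an order that 32.7% of tested genes showed. Klf2 and S1pr1 were not called. The genes had been chosen with earlier results of these data known, so the count describes them and does not test them as a group.

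**Figure D1:**
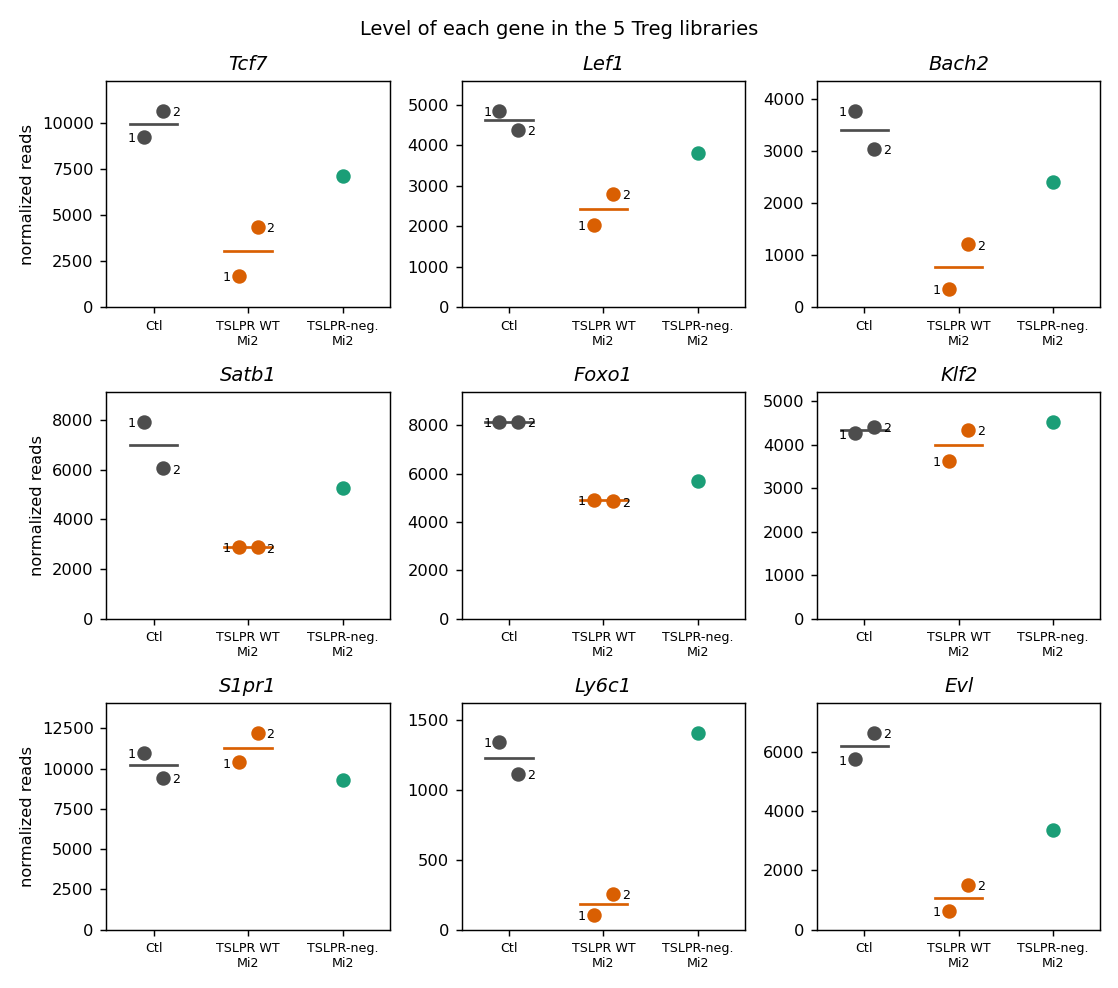
Normalized reads (vertical axes, from 0) of the 9 genes in each of the 5 Treg libraries, with replicate numbers beside the points and a line at the mean of each pair. Ly6c1 read 1347 and 1119.6 in the Ctl pair, 108 and 256 in the TSLPR WT Mi2 pair and 1411 in the TSLPR-negative library, while S1pr1 stayed between 9286 and 12222.

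Tcf7 (chr11:52066106-52095752 on mm9, - strand, as the deposited table gives it, like the other gene positions below) read 9233 and 10649.7 in the Ctl pair, 1722 and 4375 in the TSLPR WT Mi2 pair, and 7106 in the TSLPR-negative library. Its groups did not overlap, and the 2 TSLPR WT Mi2 libraries themselves stood apart, at 17.3% and 44.0% of the Ctl mean. The log2 change from Ctl was -1.85 (SE 0.320, adjusted p 6.59e-04), and without TSLPR WT Mi2 replicate 1 it was -1.18. Lef1 (chr3:130813215-130927275, + strand), the close relative of Tcf7, read 4853 and 4374 in the Ctl pair, 2044 and 2801 in the TSLPR WT Mi2 pair and 3819 in the TSLPR-negative library. These groups too were separate, with a smaller fall than for Tcf7: a log2 change of -0.95 (SE 0.215, adjusted p 0.00463). Without TSLPR WT Mi2 replicate 1 the Lef1 change was -0.72 with an adjusted p of 0.0776, so its call rested on that library. The 3 Lef1 transcripts gave changes between -0.96 and -0.94. Transcripts of 1 gene overlap and count many of the same reads, so such ranges, here and below, are no independent support.

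Bach2 (chr4:32504410-32673083, + strand), the repressor whose promoter is printed above, read 3777 and 3039.6 in the Ctl pair, 356 and 1213 in the TSLPR WT Mi2 pair, and 2399 in the TSLPR-negative library. TSLPR WT Mi2 replicate 1 held 10.5% of the Ctl mean and replicate 2 held 35.6%, both below either Ctl library. The log2 change was -2.36 (SE 0.388, adjusted p 4.46e-04), and -1.48 without TSLPR WT Mi2 replicate 1. Satb1 (chr17:51875512-51951379, - strand), the chromatin organizer, read 7925 and 6053 in the Ctl pair, 2901 and 2868 in the TSLPR WT Mi2 pair and 5251 in the TSLPR-negative library. Here the 2 TSLPR WT Mi2 libraries were alike, at 41.5% and 41.0% of the Ctl mean. Satb1 fell by 1.26 in log2 units (SE 0.209, adjusted p 4.70e-04), and its 4 transcripts gave changes between -1.27 and -1.26.

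Foxo1, Klf2 and S1pr1, which form a chain from factor to target to receptor, did not share 1 result. Foxo1 (chr3:52072259-52154031, + strand) read 8141.5 and 8145 in the Ctl pair, 4926 and 4851 in the TSLPR WT Mi2 pair, and 5684 in the TSLPR-negative library. Both pairs were tight, and Foxo1 fell by 0.74 in log2 units (SE 0.198, adjusted p 0.0124). The call was lost without TSLPR WT Mi2 replicate 1 (adjusted p 0.0708) or replicate 2 (adjusted p 0.0962), with changes of -0.75 and -0.73. It was also lost in the fit without an intensity trend (adjusted p 0.059), which called 6 of the 9 genes. Klf2 (chr8:74842961-74845553, + strand), a factor of quiescence and migration, read 4262 and 4416 in the Ctl pair, 3626 and 4346 in the TSLPR WT Mi2 pair and 4526 in the TSLPR-negative library. The groups overlapped. The log2 difference was -0.13, with a 95% interval from -0.56 to 0.30 and an adjusted p of 0.680. S1pr1 (chr3:115413351-115417973, - strand) read 10974.5 and 9419 in the Ctl pair, 10387 and 12222 in the TSLPR WT Mi2 pair, and 9286 in the TSLPR-negative library. Its groups overlapped as well. The difference was 0.15, with an interval from -0.30 to 0.60 and an adjusted p of 0.645, so a fall of the size of that of Tcf7, Bach2 or Satb1 lay outside the interval.

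Ly6c1 and Evl had the largest falls of the 9 genes. Ly6c1 (chr15:74875445-74879267, - strand) read 1347 and 1119.6 in the Ctl pair, 108 and 256 in the TSLPR WT Mi2 pair, and 1411 in the TSLPR-negative library. Every TSLPR WT Mi2 value was far below the others, at 8.73% and 20.7% of the Ctl mean. The log2 change was -2.88 (SE 0.328, adjusted p 2.57e-05), and its 5 transcripts gave between -2.94 and -2.88. Ly6c1 has a near copy, Ly6c2: 31.7% of the 50-base windows of the Ly6c1 transcript occur in Ly6c2, so the split of reads between the pair is uncertain. Ly6c2 itself read 105 and 70.6 in the Ctl pair, 30.0 and 73.7 in the TSLPR WT Mi2 pair and 77.7 in the TSLPR-negative library, and was not called (adjusted p 0.174). Evl (chr12:109873963-109926725, + strand), the actin regulator, read 5751 and 6647 in the Ctl pair, 639 and 1509 in the TSLPR WT Mi2 pair and 3371 in the TSLPR-negative library. The TSLPR WT Mi2 libraries held 10.3% and 24.3% of the Ctl mean. Evl fell by 2.65 in log2 units (SE 0.305, adjusted p 2.62e-05), and its 4 transcripts each gave -2.65.

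The 2 TSLPR WT Mi2 libraries were not equal for these genes. Replicate 1 read lower than replicate 2 for 7 of the 9, all but Satb1 and Foxo1, an order that 49.6% of tested genes showed. Replicate 2 read at least 2 times as much as replicate 1 for 4 of the 9 genes: Tcf7 (2.54 times), Bach2 (3.41), Ly6c1 (2.38) and Evl (2.36). Such a gap was seen for 2.97% of tested genes. For Satb1 and Foxo1 the ratio was 0.989 and 0.985. The size of the falls of Tcf7, Bach2, Ly6c1 and Evl thus differed between the 2 libraries, and either library alone lay below both Ctl libraries for all 4. With TSLPR WT Mi2 replicate 1 left out, 5 of the 9 genes were called, and with replicate 2 left out, 6.

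**Figure D2:**
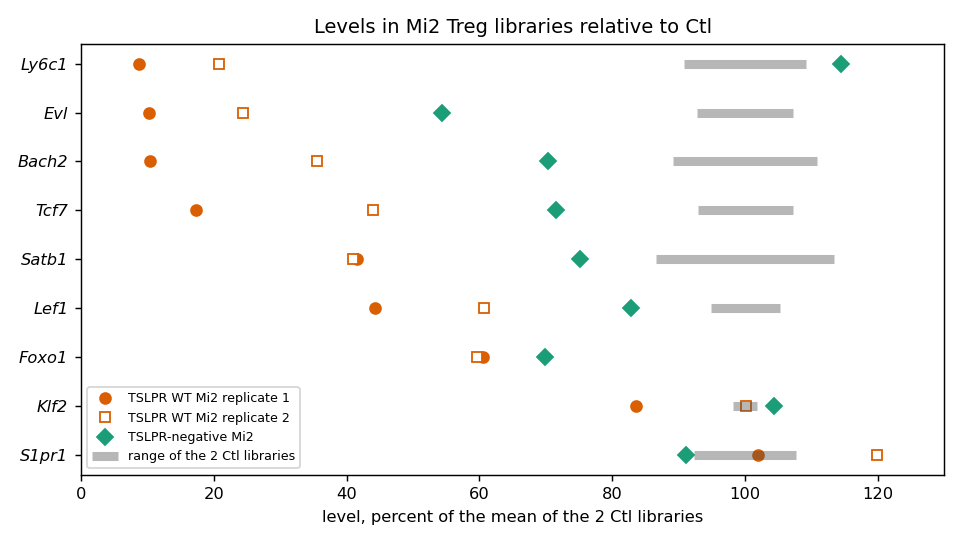
Level of each gene in the 3 Mi2 libraries as a percent of the mean of the 2 Ctl libraries (horizontal axis), with the range of the Ctl libraries as a grey bar (too narrow to see for Foxo1, whose Ctl libraries read 8141.5 and 8145). TSLPR WT Mi2 replicate 1 lies at 8.73% for Ly6c1 and 10.3% for Evl, and the TSLPR-negative library lies at 114% and 54.4%.

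In TSLPR-negative Tregs of Mi2 mice, several of these genes stood nearer to Ctl than in TSLPR WT Tregs of Mi2 mice, and Ly6c1 and Evl were called. This comparison has 1 TSLPR-negative library, so its spread was borrowed from the other groups. Against TSLPR WT Mi2 Tregs, 2 of the 9 genes rose and 0 fell, with 0.942% of all tested genes called, 0.737% higher and 0.205% lower. The median log2 difference of the 9 was 0.86, and that of all genes was 0.03. The TSLPR-negative library lay above both TSLPR WT Mi2 libraries for 8 of the 9 genes, S1pr1 being the exception, an order that 38.8% of tested genes showed.

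Ly6c1 rose by 3.08 in log2 units between TSLPR WT and TSLPR-negative Tregs of Mi2 mice (SE 0.402, adjusted p 0.00365). With 1411 normalized reads it stood above both Ctl libraries, at 114% of their mean. Evl rose by 1.78 (SE 0.373, adjusted p 0.0397) to 54.4% of the Ctl mean, between the groups. Without TSLPR WT Mi2 replicate 1, the Evl difference was 1.16 and its call was lost. The Evl call was also lost with median-ratio scaling, with a minimum mean of 1, without an intensity trend and without a filter on low values. Bach2 differed by 1.87 (SE 0.476, adjusted p 0.0864) and Tcf7 by 1.37 (SE 0.392, adjusted p 0.126), and neither passed. Without TSLPR WT Mi2 replicate 2 both did, with differences of 2.75 for Bach2 and 2.05 for Tcf7, and without replicate 1 neither did, at 0.98 and 0.70. Bach2 also passed without Ctl replicate 1 (adjusted p 0.0364) or Ctl replicate 2 (adjusted p 0.0407). Differences for Satb1 (0.86, adjusted p 0.146), Lef1 (0.67, adjusted p 0.297), Foxo1 (0.22, adjusted p 0.818), Klf2 (0.19, adjusted p 0.853) and S1pr1 (-0.28, adjusted p 0.770) were not called. The intervals were wide: for Satb1 the 95% interval ran from 0.32 to 1.41, and for Foxo1 from -0.30 to 0.74.

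Against Ctl Tregs, 0 of the 9 genes were called in the TSLPR-negative library by limma, where 3.15% of all tested genes were called, 0.516% lower and 2.63% higher. At an unadjusted p under 0.05 there were 2, Foxo1 and Evl, both lower, and edgeR and DESeq2 on the recovered reads also called 0. The log2 differences were -0.88 for Evl (SE 0.373, 95% interval -1.67 to -0.08), -0.52 for Foxo1, -0.50 for Bach2, -0.48 for Tcf7, -0.40 for Satb1 and -0.27 for Lef1. Those of Klf2, S1pr1 and Ly6c1 were 0.06, -0.13 and 0.20. The library nonetheless lay below both Ctl libraries for 7 of the 9 genes, an order seen for 31.3% of tested genes. It lay between the TSLPR WT Mi2 pair below and the Ctl pair above for 6 genes (Tcf7, Lef1, Bach2, Satb1, Foxo1 and Evl), against 15.4% of tested genes. The 3 comparisons share libraries, so their values for a gene are not independent of each other.

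**Figure D3:**
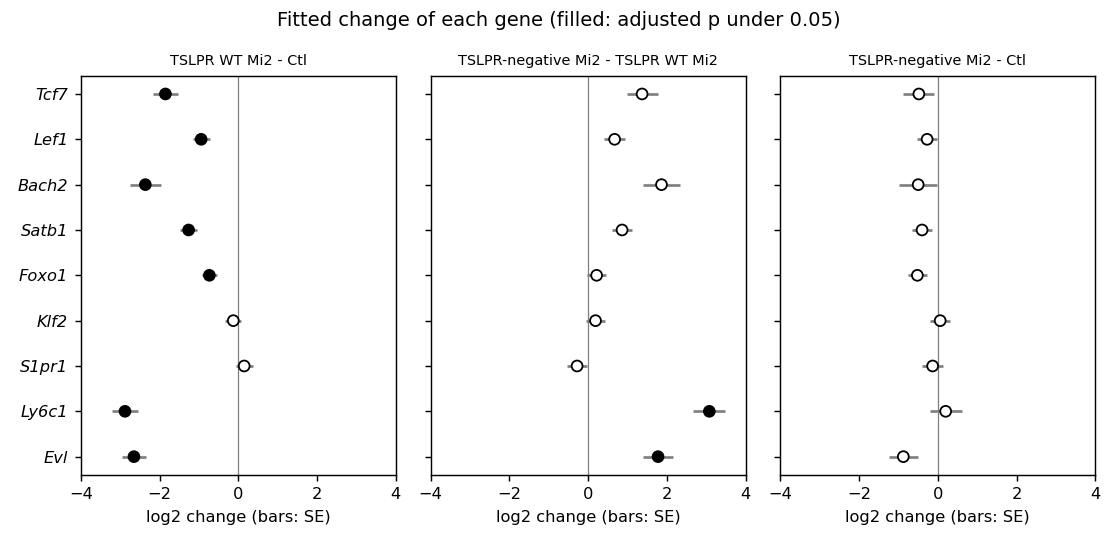
Fitted log2 changes (horizontal axes) of the 9 genes in the 3 comparisons, with bars of 1 SE and filled points for genes with an adjusted p under 0.05. Filled points are 7 in TSLPR WT Mi2 against Ctl, 2 (Ly6c1 and Evl) in TSLPR-negative against TSLPR WT Mi2, and none against Ctl in the TSLPR-negative library, where limma called 0 of the 9.

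Levels between genes were compared per kilobase of transcript. In Ctl Tregs, Tcf7 stood highest, at 4172 and 4812 normalized reads per kilobase. S1pr1 (3628 and 3114) and Evl (2964 and 3426) came next and overlapped each other. Klf2 followed at 2354 and 2438. Below it, Ly6c1 (1597 and 1328), Foxo1 (1468 and 1468), Lef1 (1332 and 1201) and Satb1 (1255 and 959) formed a run in which each overlapped a neighbour, and Bach2 was lowest, at 445 and 358. In TSLPR WT Mi2 Tregs the order began with S1pr1 (3434 and 4040) and Klf2 (2002 and 2399.8), both above Tcf7 (778 and 1977) in each library. Evl was at 330 and 778, Ly6c1 at 128 and 303, and Bach2 at 42.0 and 143. In the TSLPR-negative library Tcf7 (3211) and S1pr1 (3069.7) were again the highest, and Ly6c1 reached 1674. Over the 5 libraries, S1pr1 had the highest mean of the 9, at the 98.3 percentile of tested genes, and Bach2 the lowest, at the 55.6 percentile.

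Most other genes of naive and central T cells fell in the same comparison. Of 15 such genes, 13 fell and 0 rose in TSLPR WT Mi2 against Ctl Tregs, with a median log2 change of -1.85 against -0.01 for all genes. Leaving out 1 library at a time gave between 10 and 13 falling genes, and the other settings between 9 and 13. Here and below, the other settings are those besides the fit without a filter on low values, which called 0 genes of any list. Bcl2, which protects resting cells from death, changed by -2.54 (adjusted p 2.56e-05). Actn1, an actin crosslinker, changed by -2.21 and Atp1b1, a sodium pump subunit, by -1.85. Il7r, 1 of the 2 genes not called, was singled out after its values were seen. This receptor chain for IL-7 read 13149 and 4762 in the Ctl pair, 16939 and 5188 in the TSLPR WT Mi2 pair and 13555 in the TSLPR-negative library, so that replicates of a group differed more than the groups did. Against TSLPR WT Mi2, 3 of the 15 rose in the TSLPR-negative library: Atp1b1 by 2.39, Bcl2 by 2.20 and Actn1 by 1.61. That count was unsteady: it was 11 without TSLPR WT Mi2 replicate 2 and between 0 and 6 in the other settings, with 0 in the fit without an intensity trend. Against Ctl, limma, edgeR and DESeq2 each called 0 of the 15 there, with 2 lower at an unadjusted p under 0.05.

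Factors that hold lymphocytes out of the cell cycle fell in part. Of 20 tested quiescence factors, 9 fell and 0 rose in TSLPR WT Mi2 Tregs, with a median of -0.64. The 9 became 5 in the fit without an intensity trend. The clearest were Btg1 (-1.76, adjusted p 4.43e-05) and Btg2 (-1.22), which restrain proliferation and promote decay of mRNA, and Foxp1 (-1.22), a forkhead factor of naive cells. Pik3ip1, an inhibitor of PI3K, fell by 1.14 on the log2 scale and was the 1 factor that rose in the TSLPR-negative library against TSLPR WT Mi2, by 1.45 (adjusted p 0.0193). Among 15 tested genes of PI3K, AKT and FOXO control, 5 fell and 2 rose in TSLPR WT Mi2 against Ctl Tregs. Over all tested genes, 13.0% were lower and 14.7% higher, so the 2 rises were near the background share. Leaving out either Ctl library or either TSLPR WT Mi2 library gave 3 falling genes, and the other settings gave 1 to 6, with 1 in the fit without an intensity trend. The 2 that rose were kinases that phosphorylate FOXO proteins: Sgk1 by 1.79 and Akt1 by 0.99. Pik3cd, the PI3K catalytic subunit of lymphocytes, changed by -0.86. Pik3ip1 and Foxo3 are in both lists.

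The partners of Tcf7 and Lef1 gave no call in the reported limma fit. It called 0 of 12 TCF/LEF partners and antagonists in TSLPR WT Mi2 against Ctl Tregs, where 27.7% of all tested genes were called. EdgeR and DESeq2 also called 0, and 1 was lower at an unadjusted p under 0.05. The other settings called between 0 and 1 of the 12 lower. The median of these 12 genes was -0.25. Ctnnb1, which encodes the coactivator β-catenin and was named after its values were seen, read 7003 and 6413 in the Ctl pair and 7388 and 6922 in the TSLPR WT Mi2 pair.

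Among 13 tested genes of S1P handling and lymph node traffic, 4 fell and 1 rose in TSLPR WT Mi2 against Ctl Tregs, beside the uncalled S1pr1. The background was 13.0% of tested genes lower and 14.7% higher. Between 3 and 4 fell with 1 library left out, and between 1 and 5 in the other settings, with 1 in the fit without an intensity trend. The single rise was lost without TSLPR WT Mi2 replicate 1 or replicate 2, and 2 genes rose without Ctl replicate 2. Itga4, the integrin α4 chain, fell by 2.10 on the log2 scale, from 7855 and 5669 to 1000 and 2425. Ccr7, the receptor that guides T cells into lymph nodes, changed by -0.86, and Sgpp1, a phosphatase acting on S1P, by -0.78. Cd69, which pulls S1PR1 from the surface, changed by -0.91. The Ctl pair stood apart for Cd69, at 4710 and 1976, against 1715 and 1542 in the TSLPR WT Mi2 pair. Over the alternative runs its change ran from -1.53 to -0.28. Of 5 tested Ly6 family genes besides Ly6c1, Ly6d (-2.53) and Ly6a (-0.73) fell, and 1 of the 5 fell without Ctl replicate 1 or without an intensity trend. Ly6a rose in the TSLPR-negative library against TSLPR WT Mi2, by 1.25 (adjusted p 0.0382). Of 11 Ena/VASP and actin partners of Evl, 2 fell, a share near the 13.0% of all tested genes that were lower: Enah, a second Ena/VASP protein, by 1.31 and Apbb1ip, a RAP1 adaptor, by 0.63 on the log2 scale. Leaving out any 1 library gave fewer: 0 of the 11 without Ctl replicate 1, Ctl replicate 2 or TSLPR WT Mi2 replicate 1, and 1 without TSLPR WT Mi2 replicate 2 or the TSLPR-negative library. Vasp, the third protein of that family and named after its values were seen, read 7054 and 9318 in the Ctl pair and 9907 and 9516 in the TSLPR WT Mi2 pair. Enah read 39.1 and 45.7 in the Ctl pair, 15.0 and 17.9 in the TSLPR WT Mi2 pair and 146 in the TSLPR-negative library, where it was higher than in TSLPR WT Mi2 by 3.08 (adjusted p 0.0170).

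Genes of effector Tregs and of the cell cycle moved the other way. Of 21 effector Treg genes, 15 rose and 0 fell in TSLPR WT Mi2 Tregs, with a median of 1.21. Over all tested genes, 14.7% were higher and 13.0% lower. The other settings gave between 10 and 17 rising effector genes. Klrg1, an inhibitory receptor, rose by 2.60, Prdm1, the factor BLIMP-1, by 2.19, Icos, a costimulatory receptor, by 1.99 and Gzmb, a granule protease, by 1.92. All 15 tested proliferation genes rose, with a median of 2.14, and Cdk1, the mitotic kinase, rose by 2.94. Of 7 Treg identity genes, Ctla4 rose by 1.46, Lrrc32 (-1.55) and Ikzf4 (-0.79) fell, and Foxp3 was not called (0.11, adjusted p 0.755). In the TSLPR-negative library, 12 of the 15 proliferation genes and 3 of the 21 effector genes (Klrg1, Prdm1 and Gzmb) were higher than in Ctl, where 2.63% of all tested genes were higher. The 3 became 1 without Ctl replicate 2 and 5 without TSLPR WT Mi2 replicate 1 or replicate 2, and without an intensity trend 0 genes of either list were called there. Against TSLPR WT Mi2, where limma called only 0.205% of all tested genes lower, it called 0 of the 21 effector genes. At an unadjusted p under 0.05, 7 were lower, while edgeR called 0 and DESeq2 called 3. Without TSLPR WT Mi2 replicate 2, 5 of the 21 were called lower, and without Ctl replicate 1 or Ctl replicate 2, 2 were. For the proliferation genes limma, edgeR and DESeq2 each called 0, with 12 lower at an unadjusted p under 0.05, and 2 were called lower without Ctl replicate 1 or Ctl replicate 2.

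**Figure D4:**
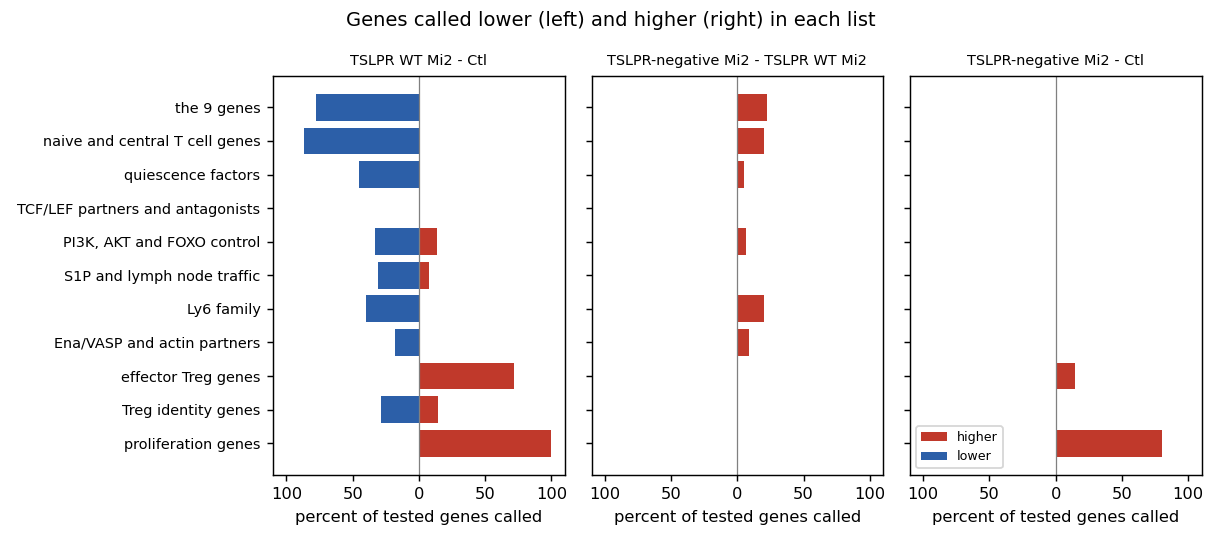
Percent of the tested genes of each list called lower (blue, left) or higher (red, right) by limma in the 3 comparisons (horizontal axes). In TSLPR WT Mi2 against Ctl the naive and central list had 13 of 15 genes lower and the proliferation list 15 of 15 higher.

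Some markers of other cells were also lower in TSLPR WT Mi2 than in Ctl Tregs. All 10 B cell markers were lower in TSLPR WT Mi2 than in Ctl Tregs, but 5 were without Ctl replicate 1, the library with the highest B cell sum, and 7 to 10 were in the other settings. Their summed level was 18059 and 10548 in the Ctl pair, 5053 and 6727 in the TSLPR WT Mi2 pair and 4486 in the TSLPR-negative library, and none of the 10 was at 0 in any library. In the TSLPR-negative library the B cell sum was the lowest of the 5, while Ly6c1 was the highest of the 5. Of 5 tested CD8 T and NK genes, 3 were lower in TSLPR WT Mi2 than in Ctl, 1 without Ctl replicate 2, and 2 to 4 in the other settings. Over the 7 genes of that list the sums were 1889.8 and 2140.5 in the Ctl pair, 813 and 1149 in the TSLPR WT Mi2 pair and 1797 in the TSLPR-negative library, the same order as Tcf7 or Evl, and none was at 0. Cd8a read 553 and 539 in the Ctl pair, 102 and 254 in the TSLPR WT Mi2 pair and 430 in the TSLPR-negative library. The other 2 called were Nkg7 (-1.46) and Eomes (-1.88). Cd8b1, the second CD8 chain, was not called in TSLPR WT Mi2 against Ctl (-0.65, adjusted p 0.0502), and neither was Prf1 (-0.49). Cd8b1 read 699 and 678 in the Ctl pair, 409 and 472 in the TSLPR WT Mi2 pair and 692 in the TSLPR-negative library. Resting CD8 T cells and B cells also transcribe several of the 9 genes, and the part of such cells in the falls was not tested.

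The remaining marker lists were small or uneven. Of 4 tested plasma cell genes, Igj and Mzb1 were lower and Sdc1 was higher in TSLPR WT Mi2 than in Ctl, with sums between 2008 and 2499 in the 5 libraries. Of 8 tested myeloid and dendritic genes, 2 were higher, Itgam and Cst3, and the median log2 change of the 8 was -0.19. Without a call, Lyz2 (-0.78), Itgax (-0.86), Tyrobp (-0.72) and Fcer1g (-0.65) read lower, and Csf1r (0.27) and Xcr1 (0.74) higher. The sums were 1329 and 1327 in the Ctl pair and 2269 and 2318 in the TSLPR WT Mi2 pair. They were mostly Cst3, at 786 and 1016 against 1495 and 1451, and Itgam, at 218 and 79.4 against 653 and 547. Of 3 tested stromal and endothelial genes, Pecam1, which T cells also carry, changed by -0.80 and Col1a1 by 1.49, the latter at 20.1 to 76.8 normalized reads. These counts rested on single libraries. Without Ctl replicate 1, 1 plasma cell gene was lower and 0 higher, 1 myeloid gene was higher and 0 stromal genes were higher. Without TSLPR WT Mi2 replicate 1, 1 myeloid gene was higher and 0 stromal genes were lower, and without TSLPR WT Mi2 replicate 2, 1 myeloid gene was higher and 0 plasma cell and 0 stromal genes were. Without Ctl replicate 2, 0 plasma cell genes were higher. Limma, edgeR and DESeq2 called 0 of 3 tested erythroid genes and 0 of 1 tested keratinocyte gene in each of the 3 comparisons. At an unadjusted p under 0.05 there were 0 in TSLPR WT Mi2 against Ctl, while the erythroid gene Alas2, named after its values were seen, was higher in the TSLPR-negative library than in TSLPR WT Mi2 by 1.33 (unadjusted p 0.0443, adjusted p 0.402, limma). Without Ctl replicate 1, 2 erythroid genes were lower in TSLPR WT Mi2 than in Ctl, and without TSLPR WT Mi2 replicate 1, 1 was, while 2 were higher in the TSLPR-negative library than in TSLPR WT Mi2. In each library, 3 or 4 of the 5 keratinocyte markers were at 0.

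For each of the 9 genes, the 1 other gene with the most similar profile was sought among 11497 genes with a mean of at least 20, as the smallest Euclidean distance between log2 profiles centred on each gene's own mean over the 5 libraries. Nsg2, itself in the naive list, lay nearest to Tcf7 (distance 0.0791). It read 5672 and 6574 in the Ctl pair, 1034 and 2519 in the TSLPR WT Mi2 pair, and 4282 in the TSLPR-negative library. The nearest to Evl was P2rx7, an ATP-gated channel (0.159), with 2738 and 3092 in the Ctl pair, 271 and 681 in the TSLPR WT Mi2 pair and 1650 in the TSLPR-negative library. Gpr83, a receptor that Tregs carry, was nearest to Ly6c1 (0.379), with 4331 and 3799 in the Ctl pair, 479 and 828 in the TSLPR WT Mi2 pair, and 4934 in the TSLPR-negative library. Like Ly6c1, it was highest there. Others were Tmcc3 for Lef1 (0.0977), 4833422C13Rik for Bach2 (0.315), Gpr18 for Foxo1 (0.0611), Elp3 for Klf2 (0.0411) and Abhd17c for S1pr1 (0.0497). Among the 9 themselves, Klf2 and S1pr1 were the closest pair (0.448), followed by Lef1 and Satb1 (0.492). Klf2 and S1pr1 were not called in any comparison, and genes that change little lie close under this distance. Their changes had opposite signs, -0.13 and 0.15 in TSLPR WT Mi2 against Ctl Tregs. S1pr1 and Ly6c1 were the farthest apart (3.52). With 5 libraries, many genes can have near profiles by their number alone, so these neighbours are descriptions.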

How the data were processed

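RNA was sequenced from sorted mouse cells, and 5 Treg libraries in 3 groups were used. The epidermal libraries were not analysed here. The submitters' processing notes name bcl2fastq 1.8.3, STAR and DESeq2, with builds mm9 and mm10. Per the file headers, the authors used HOMER to count exon reads of RefSeq transcripts (mm9), listing 7 libraries, of which 5 are in the table. The deposited signal is a normalized read count, whole reads times 1 factor per library. All values were whole to within 0.05 reads when divided by it. The libraries summed to between 25855624 and 25855635 over all transcripts, so the scaling is to a common total, although the notes name DESeq2. One column, named TMDKO, was read as the TSLPR-negative library from its name.

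Limma 3.58.1 (R 4.3.3, intensity trend) was fitted to log2(value + 1) of the 5 libraries, for 12206 genes with a mean of at least 10, 1 transcript per symbol of 33022 transcripts, with Benjamini-Hochberg adjustment. Tests were two-sided. Alternatives used edgeR 4.0.16 and DESeq2 1.42.0 on recovered reads, other scalings, pseudocounts (0.5, 5), filters and left-out libraries. The fit was tested on simulated data. Named genes were the 9 genes, up to 4 called genes with the smallest p per list, and nearest profiles. The genes and lists were chosen with earlier results of these data known. Depth ranged from 21849381 to 32238992 reads; reads had no molecular identifiers. Which library kit served each sample is not given in the sources used here, nor is the strand setting, so overlapping antisense reads cannot be told apart. Same-numbered replicates deviated together with a correlation of 0.0917, so numbers were not taken as pairs. Values of some list genes and of 1 nearest profile are not reported here.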

Additional observations from a re-analysis of the deposited data

How the results depend on the processing

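The falls of Tcf7, Bach2, Satb1, Ly6c1 and Evl in TSLPR WT Mi2 against Ctl Tregs kept their direction in every alternative run, and their call in all but the fit without a filter. That fit tested 16831 genes, 205 of them with equal values within both replicate pairs, and called 0 genes, 0 higher and 0 lower, and 0 of the 9, in each of the 3 comparisons. A minimum mean of 1, chosen after seeing the data, gave 14 genes (11 higher, 3 lower) and 1 of the 9 for TSLPR-negative against TSLPR WT Mi2 Tregs, and 208 (182 higher, 26 lower) for TSLPR-negative against Ctl. Without an intensity trend, 1059 genes were lower in TSLPR WT Mi2 against Ctl, where the reported fit had 1592, and 6 of the 9 were called, Foxo1 not. Without the trend the second comparison had 3 genes (2 higher, 1 lower) and 0 of the 9, and the third 1 gene (1 higher, 0 lower).

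For TSLPR-negative against TSLPR WT Mi2 Tregs, the reported fit called 115 genes (90 higher, 25 lower) and 2 of the 9. Median-ratio scaling gave 65 (47 higher) and 1 of the 9, DESeq2 236 (143 higher, 93 lower), and a fit of only the 2 groups compared 289 (170 higher, 119 lower) and 4 of the 9. For TSLPR-negative against Ctl, the reported fit called 384 genes (321 higher, 63 lower), DESeq2 found 108 lower, and the fit of 2 groups 662 (198 lower).

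Leaving out 1 library at a time gave 156 to 457 genes in the second comparison (121 to 322 higher, 35 to 135 lower), with 1 to 4 of the 9 called, all of them higher. The highest counts came without TSLPR WT Mi2 replicate 2 (457, and 4 of the 9). It was 231 and 233 without Ctl replicates 1 and 2. In the third comparison the range was 354 to 683 genes (247 to 506 higher, 45 to 178 lower), with 680 and 683 without TSLPR WT Mi2 replicates 1 and 2, 107 lower without Ctl replicate 2, and 0 of the 9 throughout. In TSLPR WT Mi2 against Ctl it was 2510 to 3355 genes and 5 to 7 of the 9. Without TSLPR WT Mi2 replicate 1, the uncalled Klf2 difference turned from -0.13 to 0.0025, and without replicate 2 it was -0.26.

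With a replicate block, 4382 genes and 7 of the 9 were called in TSLPR WT Mi2 against Ctl; the numbers share no stated source. No paired analysis was possible for the other comparisons because the TSLPR-negative group has 1 library. Limits are the 2 libraries per group, the single TSLPR-negative library and its borrowed spread. The causes of these shifts were not tested.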
